A study of Mus musculus with 48 samples.

Results

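The receptors, Rel proteins and inhibitors of lymphotoxin and NF-κB signalling were followed in stromal cells of mouse lymph nodes (LNs) with and without B cell lymphoma. The set was a list of 10 genes, namely Ltbr, Tnfrsf1a, Nfkb1, Nfkb2, Rela, Relb, Nfkbia, Nfkbie, Tnfaip3 and Birc3. It was chosen by name, with earlier results of these data known. Of the 10 genes, 9 had a named probe above background and were tested among 13353 genes, and Nfkb1 had no probe in the annotation used and was not analysed here. Each gene was read from its brightest probe, and levels are log2 intensities. A difference of 1 therefore means a doubling of the signal. Values of 5.57 and less were taken as background.

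RNA came from 4 cell populations sorted from skin-draining LNs of tumor-bearing mice and of tumor-naive Wt mice. Tumor mice had received 200000 to 400000 Eμ-Myc lymphoma B cells by i.v. injection, and lymphoma cells made up 4 to 10% of LN lymphocytes. Eμ-Myc cells are transplantable mouse lymphoma B cells in which an immunoglobulin heavy chain enhancer drives Myc. LNs of both groups were digested for about 50 min, depleted of CD45+ cells and sorted, without CD45+, Ter119+ and dead cells, into fibroblastic reticular cells (FRCs, CD31-gp38+), blood endothelial cells (BECs, CD31+gp38-), lymphatic endothelial cells (LECs, CD31+gp38+) and double negative (DN) cells. The paper used here credits the arrays to an earlier study. It lists C57BL/6N mice among its own animals, and its methods give mice of both sexes, 8 to 12 weeks old, for its experiments. It does not give strain, sex or age separately for the mice of the arrays. Each of the 8 groups held 3 biological replicates on 2 array strips each, 24 replicates in all. An array received 80 ng of RNA, which combined the yield of 4 to 6 sorts. No source states whether replicates came from separate animals, so p-values measure the spread between these pools.

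Lymphotoxin is a TNF family ligand that lymphocytes present to stromal cells. Its receptor LTβR, encoded by Ltbr, acts through the kinase NIK, and the Nfkb2 precursor is then processed. The product enters the nucleus with RelB in what is called the noncanonical pathway. TNF receptors mainly use the canonical pathway, in which IκB proteins such as those encoded by Nfkbia and Nfkbie are degraded and release RelA. In LNs, both pathways are known for the chemokines and adhesion molecules by which stromal cells recruit and place lymphocytes.

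FRCs, BECs and LECs carried their defining markers, while DN cells also had signal of markers of the other populations. Mean levels of Pdgfra, a fibroblast receptor, were 13.63 in tumor FRCs and 14.22 in naive FRCs. Cdh5, the junctional cadherin of endothelium, reached 13.76 in tumor BECs and 14.03 in naive BECs, and Prox1, the lymphatic regulator, 12.73 in tumor LECs and 13.27 in naive LECs. In DN cells, Itga7, an integrin of pericytes, was at 9.57 in tumor and 10.24 in naive cells, and the endothelial Pecam1 at 10.76 in tumor and 7.50 in naive cells. Of 12 blood endothelium markers, 6 were called higher in tumor DN cells and 0 lower, with a median change of 1.94. Over all genes, 4.7% were called higher in DN cells. Pdpn, the gene of gp38, was at 11.29 in tumor and 11.25 in naive DN cells, and Pdgfra at 11.06 and 11.43. Leukocyte markers were uneven. Of 11 tested, 7 were called higher in tumor DN cells, and their mean level was 12.03, 11.35 and 8.79 in the tumor DN replicates, against 8.19, 7.83 and 7.90 in the naive DN replicates. Their summed signal was 10300 to 79300 in tumor DN cells, against 6380 to 7790 in naive DN cells. DN naive replicate 2 stood apart from the other naive DN replicates, with a mean FRC and fibroblast marker level of 12.54, against 10.99 and 10.86 in the others. It was the highest of its group for 8 of 9 members, and for 41.8% of all genes. FRC naive replicate 3 was likewise the highest of its group for 8 of 9 members, and for 35.6% of all genes. Values of members without each of the 2 replicates are given below where a call in a cell type or a naive pair moved. They are also given where a tumor change turned sign. Each cell type had an array slide of its own, and on each slide the naive strips took the first positions and the tumor strips the last, so slide and cell type, and position and tumor state, cannot be told apart.

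Genes that NF-κB itself induces often carry κB sites, and both Nfkb2 and the inhibitors are textbook cases. RefSeq start regions (GRCm38.p6, 250 bases before to 50 after the start) were matched for 8 of the 10 genes, with 11 entries, and none was found for Nfkb1 and Relb. They were searched on both strands for the 10-base κB consensus, overlaps included. A match was present in 6 entries of 4 genes (Nfkb2, Nfkbia, Nfkbie and Tnfaip3), and in 8.46% of all 32851 entries. The regions of these 4 genes are shown because they include both genes with the widest change in FRCs, Nfkb2 and Nfkbie. Capitals mark the letters that match the consensus, and Nfkb2 is shown by its first entry of 3.
Nfkb2, chr19:46304487-46304786, plus strand: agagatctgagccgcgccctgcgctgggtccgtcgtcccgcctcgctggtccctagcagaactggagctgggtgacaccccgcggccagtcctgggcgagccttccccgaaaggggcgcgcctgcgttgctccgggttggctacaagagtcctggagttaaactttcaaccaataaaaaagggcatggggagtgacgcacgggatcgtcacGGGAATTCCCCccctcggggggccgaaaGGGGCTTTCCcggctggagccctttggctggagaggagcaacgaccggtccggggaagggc
Nfkbie, chr17:45555450-45555749, plus strand: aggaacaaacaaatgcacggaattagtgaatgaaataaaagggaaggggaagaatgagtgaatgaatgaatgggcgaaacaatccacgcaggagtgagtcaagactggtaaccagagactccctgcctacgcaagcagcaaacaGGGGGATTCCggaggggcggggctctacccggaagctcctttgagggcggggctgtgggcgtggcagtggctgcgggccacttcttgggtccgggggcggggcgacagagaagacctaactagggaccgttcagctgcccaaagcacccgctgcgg
Nfkbia, chr12:55492598-55492897, minus strand: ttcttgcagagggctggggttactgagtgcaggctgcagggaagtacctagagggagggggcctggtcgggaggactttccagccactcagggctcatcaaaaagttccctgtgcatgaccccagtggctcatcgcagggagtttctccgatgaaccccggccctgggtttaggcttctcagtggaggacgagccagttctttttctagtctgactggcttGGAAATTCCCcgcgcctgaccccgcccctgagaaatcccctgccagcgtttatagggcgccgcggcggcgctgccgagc
Tnfaip3, chr10:19015361-19015660, minus strand: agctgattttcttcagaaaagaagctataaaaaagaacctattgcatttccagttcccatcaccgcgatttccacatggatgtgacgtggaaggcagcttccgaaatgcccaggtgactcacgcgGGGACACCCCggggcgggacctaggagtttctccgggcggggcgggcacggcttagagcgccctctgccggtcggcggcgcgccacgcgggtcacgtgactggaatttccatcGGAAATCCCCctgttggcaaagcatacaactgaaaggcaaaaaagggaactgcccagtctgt
Counted from the start, matches in Nfkb2 began at -39 and -38, overlapping each other, and at -11. The Nfkbie match began at -106 and the Nfkbia match at -29. Tnfaip3 had matches that began at -125 and -12 of its outer start. A match describes letters only, and binding was not measured.

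In FRCs, transcripts of Nfkb2 and Relb, the noncanonical pair, were called higher with lymphoma. The inhibitor gene Nfkbie had a change of 1.57, beside 1.54 for Nfkb2, and missed the threshold (limma adjusted p = 0.0518). The receptors, Rela and the remaining members did not pass the test. Of the 9 members, 2 were called higher and none lower. Over all genes, 10.3% were called in FRCs, 6.29% higher and 4.05% lower. All tumor replicates lay above all naive replicates for 5 members (Nfkb2, Relb, Nfkbia, Nfkbie and Birc3), as they did for 19.3% of all genes, and no member had all tumor replicates below the naive ones, against 19.7% of all genes. An unadjusted p under 0.05 was reached by 3 members (Nfkb2, Relb and Nfkbie) and by 25.3% of all genes. The median change of the members was 0.50, against -0.02 over all genes. Since sorted cells were measured in bulk, more transcript per cell and more cells of a kind that expresses it cannot be told apart.

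**Figure D1:**
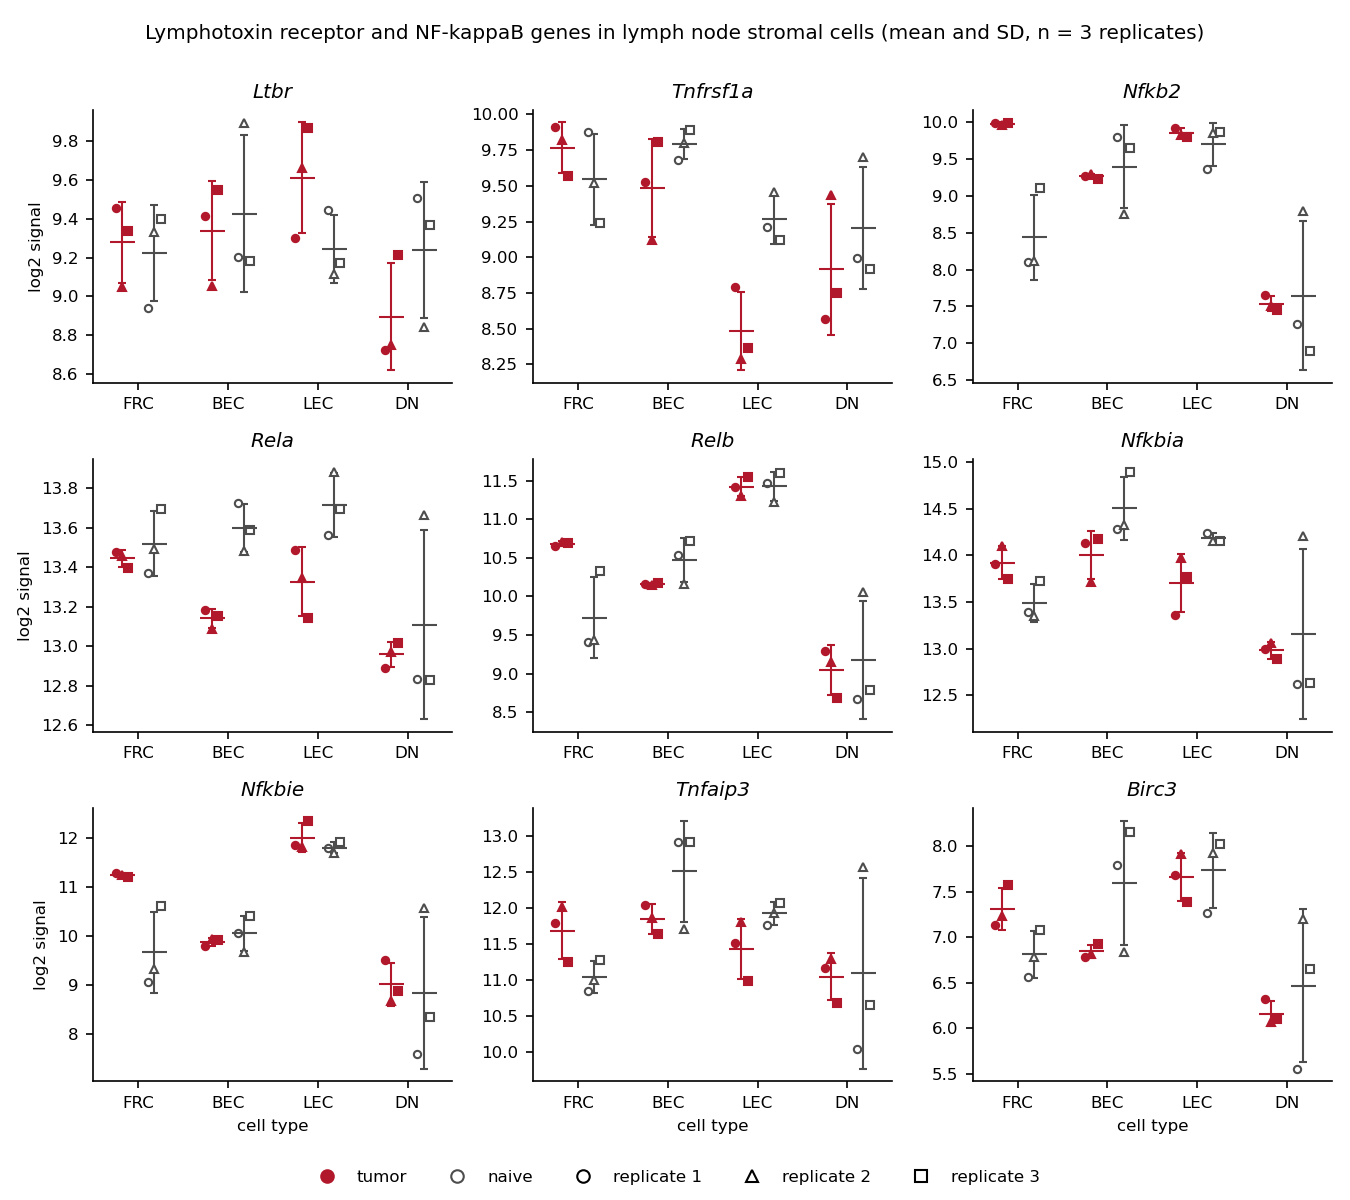
Log2 level of the 9 measured members in each cell type, 1 panel per gene. Filled symbols are tumor replicates and open symbols naive replicates, the symbol shape gives the replicate number, and bars are mean and SD (n = 3). In FRCs, the tumor replicates of Nfkb2 lie between 9.96 and 9.99, above the naive replicates at 8.10 to 9.10.

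Ltbr (chr6:125306571-125313885), the lymphotoxin receptor, had levels of 9.45, 9.05 and 9.34 in tumor FRCs, against 8.94, 9.33 and 9.40 in naive FRCs. In BECs it had 9.42, 9.05 and 9.55 in tumor replicates, against 9.20, 9.90 and 9.18 in naive replicates. Replicates of both states were interleaved in all 4 cell types. The change was 0.05 in FRCs (95% CI -0.43 to 0.54), -0.09 in BECs (-0.57 to 0.39), 0.37 in LECs (-0.11 to 0.85) and -0.34 in DN cells (-0.83 to 0.14). None was called (lowest limma adjusted p 0.395, in DN cells), and the intervals exclude a doubling or halving of the signal.

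Tnfrsf1a (chr6:125349723-125362483) encodes TNFR1, the broadly expressed TNF receptor, and lies on the same chromosome as Ltbr. In LECs it had 8.79, 8.29 and 8.36 in tumor replicates, against 9.21, 9.46 and 9.12 in naive replicates. All tumor LEC replicates were below all naive ones, and the level was 1.72-fold lower in tumor LECs (change -0.78, SE 0.25, 95% CI -1.30 to -0.27). The difference had the lowest p of the members in LECs and did not pass after adjustment over all genes (limma adjusted p = 0.205). Both other probes of Tnfrsf1a had changes of -0.72 and -0.93 in LECs, and neither was called. In FRCs the gene had 9.91, 9.82 and 9.57 in tumor replicates, against 9.88, 9.52 and 9.24 in naive replicates, with overlap and a change of 0.22.

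Nfkb2 (chr19:46300994-46312400) encodes the precursor that LTβR signalling turns into the RelB partner. Its level was 9.99, 9.96 and 9.98 in tumor FRCs, against 8.10, 8.11 and 9.10 in naive FRCs. The groups did not overlap, the tumor replicates were nearly equal, and naive replicate 3 was the naive replicate closest to them. The change was 1.54 (SE 0.36, 95% CI 0.78 to 2.30), a 2.9-fold higher level in tumor FRCs, with an adjusted p of 0.0106 in limma after Benjamini-Hochberg adjustment. Without FRC naive replicate 3 it was 1.87 with a limma adjusted p of 0.00477. Without FRC naive replicate 1 or 2 it was 1.37 in both cases and was not called (adjusted p = 0.066 and 0.0574).

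Relb (chr7:19606217-19629438) encodes the Rel protein of the noncanonical pathway. Tumor FRCs had levels of 10.65, 10.71 and 10.70, against 9.41, 9.43 and 10.34 in naive FRCs. The same naive replicate again lay closest to the tumor replicates, and the groups did not overlap. Relb was 1.94-fold higher in tumor FRCs, a change of 0.96 (SE 0.29, 95% CI 0.35 to 1.57, limma adjusted p = 0.0401). The call was made without FRC naive replicate 3 (change 1.26, adjusted p = 0.0117) and was lost without FRC naive replicate 1 or 2 (0.80 and 0.81, adjusted p = 0.18 and 0.159), any FRC tumor replicate (0.95 to 0.97, adjusted p = 0.0761 to 0.133) or LEC naive replicate 1 (adjusted p = 0.0507). It was also lost with the replicate number as a block (adjusted p = 0.0504).

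Rela (chr19:5637442-5648134) encodes the main activating subunit of the canonical pathway. In FRCs it lay at 13.48, 13.46 and 13.40 in tumor replicates, against 13.37, 13.49 and 13.70 in naive replicates, with overlap and a change of -0.08 (95% CI -0.45 to 0.30). In BECs, Rela was at 13.18, 13.09 and 13.15 in tumor replicates, against 13.73, 13.48 and 13.59 in naive replicates. In LECs, it was at 13.49, 13.35 and 13.14 in tumor replicates, against 13.56, 13.88 and 13.70 in naive replicates. All tumor replicates thus lay below all naive replicates in both endothelial types. The changes of -0.46 (SE 0.18) in BECs and -0.39 (SE 0.18) in LECs did not pass the test (limma adjusted p = 0.148 and 0.538). Without DN naive replicate 2, the BEC change of Rela kept its value and was called (limma adjusted p = 0.0295). Over all genes, 1016 of 13493 were then called in BECs, against 667 of 13353 with all replicates.

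Nfkbie (chr17:45555700-45563169) encodes IκBε, an inhibitor that holds Rel dimers in the cytoplasm. It had levels of 11.30, 11.24 and 11.21 in tumor FRCs, against 9.06, 9.34 and 10.62 in naive FRCs. As for Nfkb2 and Relb, the tumor replicates were close together and above the naive ones, of which replicate 3 was by far the highest. The change of 1.57 (SE 0.50, 95% CI 0.52 to 2.63) was close to that of Nfkb2 and missed the threshold (limma adjusted p = 0.0518). It passed without FRC naive replicate 3 (change 2.05, adjusted p = 0.0196) and without DN naive replicate 2 (adjusted p = 0.00277). Over all genes, these settings called 1171 of 13386 and 1975 of 13493 in FRCs, against 1381 of 13353 with all replicates. A dimmer probe of Nfkbie gave 1.91 (SE 0.42) in FRCs, with an adjusted p of 0.00691 in a limma fit over all probes. In LECs its probes differed in sign, at 0.20 for the brighter and -0.87 for the dimmer, and neither was called.

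Nfkbia (chr12:55489409-55492647) encodes IκBα, the inhibitor that NF-κB itself induces. Levels in FRCs were 13.91, 14.10 and 13.75 in tumor replicates, against 13.40, 13.35 and 13.72 in naive replicates. In BECs they were 14.14, 13.71 and 14.17 in tumor replicates, against 14.29, 14.32 and 14.90 in naive replicates, and in LECs 13.36, 13.97 and 13.77 in tumor replicates, against 14.24, 14.16 and 14.16 in naive replicates. Tumor replicates lay above the naive ones in FRCs and below them in BECs and LECs, each time without overlap. The changes of 0.43, -0.50 and -0.49 in FRCs, BECs and LECs did not pass the test (limma adjusted p = 0.413, 0.389 and 0.756). A dimmer probe gave 0.47, -0.59 and -0.34 in the same order.

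Tnfaip3 (chr10:19000910-19015410) encodes A20, an enzyme that edits ubiquitin and shuts down TNF receptor signalling. It had 11.80, 12.02 and 11.26 in tumor FRCs, against 10.85, 11.00 and 11.28 in naive FRCs. Tumor replicate 3 and naive replicate 3 were almost equal, so the groups overlapped, and the change of 0.65 (SE 0.45) was not called (limma adjusted p = 0.405). In BECs it had 12.05, 11.87 and 11.64 in tumor replicates, against 12.92, 11.71 and 12.92 in naive replicates, a change of -0.67 with overlap (limma adjusted p = 0.45).

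Birc3 (chr9:7847468-7873205) encodes cIAP2, a ubiquitin ligase that acts with TRAF adaptors at TNF family receptors. Its strips differed by up to 2.55 within a replicate, against 0.71 at most for the other members. Levels were 7.14, 7.23 and 7.57 in tumor FRCs, against 6.57, 6.79 and 7.08 in naive FRCs, and the groups were just separated. In BECs they were 6.79, 6.82 and 6.93 in tumor replicates, against 7.79, 6.84 and 8.16 in naive replicates, where naive replicate 2 fell among the tumor replicates. The changes of 0.50 in FRCs and -0.75 in BECs were not called (limma adjusted p = 0.393 and 0.224).

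**Figure D2:**
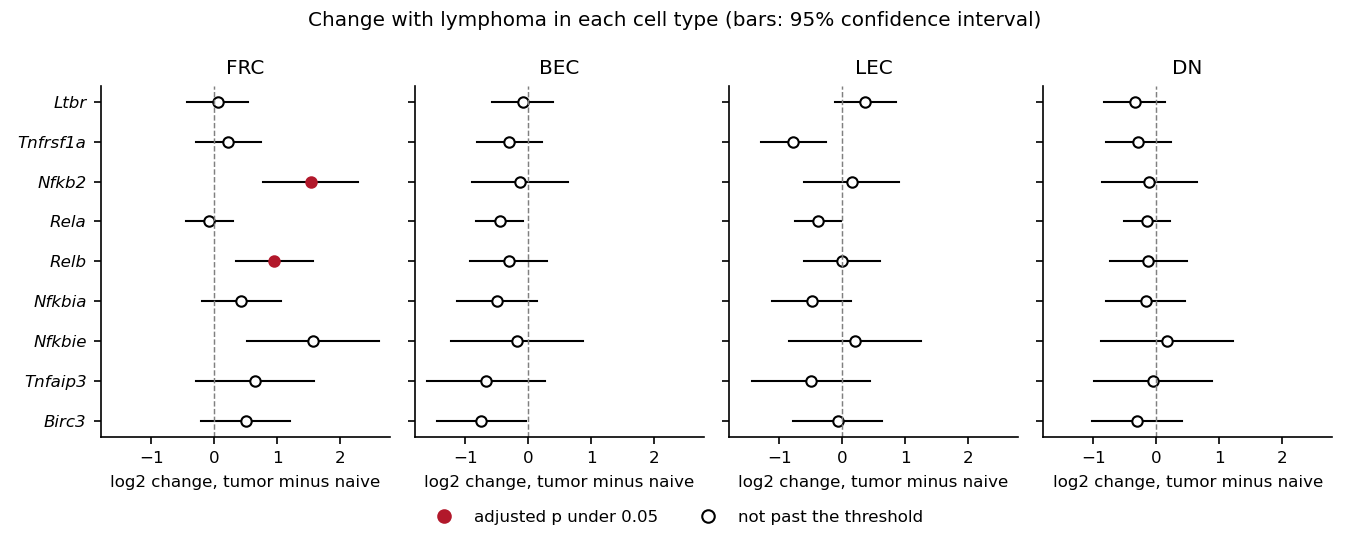
Tumor minus naive change of the 9 members on the log2 scale in FRCs, BECs, LECs and DN cells, with bars for the 95% confidence interval of the limma fit. Filled points mark an adjusted p under 0.05. Nfkb2 at 1.54 and Relb at 0.96 in FRCs are the filled points, and all 9 members lie below 0 in BECs.

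In BECs, all 9 members had a change below 0, and none was called, while 5% of all genes were, 3.53% higher and 1.46% lower. Their median was -0.31, against -0.04 over all genes. Rela and Nfkbia were separated with tumor replicates below, as were 13% of all genes, and 2 members, Rela and Birc3, had an unadjusted p under 0.05, as did 19.8% of all genes. Nfkb2, called in FRCs, had 9.26, 9.30 and 9.23 in tumor BECs, against 9.80, 8.75 and 9.64 in naive BECs. Relb had 10.16, 10.14 and 10.18 in tumor BECs, against 10.54, 10.16 and 10.72 in naive BECs. Naive replicate 2 was the lowest naive replicate of both genes and reached down to the tumor replicates or below them. Beside these values, leukocyte markers had a mean level of 10.25, 11.24 and 8.19 in tumor BECs, against 8.37, 8.21 and 8.08 in naive BECs, and 1 of 11 was called. Their summed signal was 7560 to 51300 in tumor BECs, against 7140 to 8330 in naive BECs. All 10 FRC and fibroblast markers had a change above 0 in BECs, with a median of 1.24 and none called. All 12 blood endothelium markers had a change below 0, with a median of -0.29 and none called, and so had 19 of 20 early response genes, with a median of -0.53 and 2 called. Vpreb3 was 24.1-fold higher (limma adjusted p = 0.00847) and the smooth muscle actin Acta2 2.39-fold higher (adjusted p = 0.0324) in tumor BECs. The part of these cells in the result was not tested.

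In LECs, no member was called, and 0.899% of all genes were, 0.764% higher and 0.135% lower. Rela, Nfkbia and Tnfrsf1a were separated with tumor replicates below, against 9.2% of all genes, and 2 members had an unadjusted p under 0.05, against 8.74% of all genes. The median change was -0.07, against -0.00 over all genes. Relb was nearly level at 11.42, 11.30 and 11.55 in tumor LECs, against 11.47, 11.23 and 11.60 in naive LECs (change -0.01, 95% CI -0.61 to 0.60). Nfkb2 lay at 9.92, 9.82 and 9.79 in tumor LECs, against 9.36, 9.86 and 9.86 in naive LECs, with overlap in both genes. Leukocyte markers had a summed signal of 8550 to 10800 in tumor LECs, against 6960 to 8430 in naive LECs, with 0 of 11 called.

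In DN cells, no member was called and no groups were separated, while 7.25% of all genes were called (4.7% higher and 2.55% lower), 7.92% had all tumor replicates above the naive ones and 7.94% below. No member had an unadjusted p under 0.05, against 23.1% of all genes. Naive replicate 2 was the highest naive replicate of nearly all members. Nfkbie had 9.52, 8.68 and 8.88 in tumor DN cells, against 7.61, 10.58 and 8.35 in naive DN cells, and Nfkb2 had 7.66, 7.50 and 7.45 in tumor DN cells, against 7.26, 8.80 and 6.89 in naive DN cells. Without that replicate, the change of Nfkbie was 1.04 in place of 0.18, that of Tnfaip3 0.70 in place of -0.05, and that of Nfkb2 0.47 in place of -0.11. In all, 6 members turned from below to above 0 (Tnfaip3, Nfkb2, Relb, Rela, Nfkbia and Birc3), and none was called. Birc3 in DN cells was near background, with 6.32, 6.07 and 6.10 in tumor replicates, against 5.56, 7.20 and 6.66 in naive replicates, of which the first was below the background level.

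Whether a change differed between cell types was tested directly. An F test over the 4 changes called none of the 9 members, and 1.26% of all genes, with the lowest limma adjusted p at 0.202 for Nfkb2 and 0.287 for Relb. Nfkb2 changed by 1.67 more in FRCs than in BECs (95% CI 0.60 to 2.74, limma adjusted p = 0.149), by 1.65 more than in DN cells (0.129) and by 1.39 more than in LECs (0.274). The same pairs were called for 0.906%, 1.21% and 0.607% of all genes. For Relb the differences were 1.27 (95% CI 0.41 to 2.13, adjusted p = 0.175), 1.08 (0.229) and 0.96 (0.384). A difference from the other cell types did not pass the test for either gene. No member was called in the other pairs either, which were called for 0.00749% (BECs and LECs), 0.427% (BECs and DN cells) and 0.255% (LECs and DN cells) of all genes. Without DN naive replicate 2, the F test called Nfkb2 and Nfkbia. Calls over all genes rose as well, to 739 of 13493, against 168 of 13353 with all replicates.

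**Figure D3:**
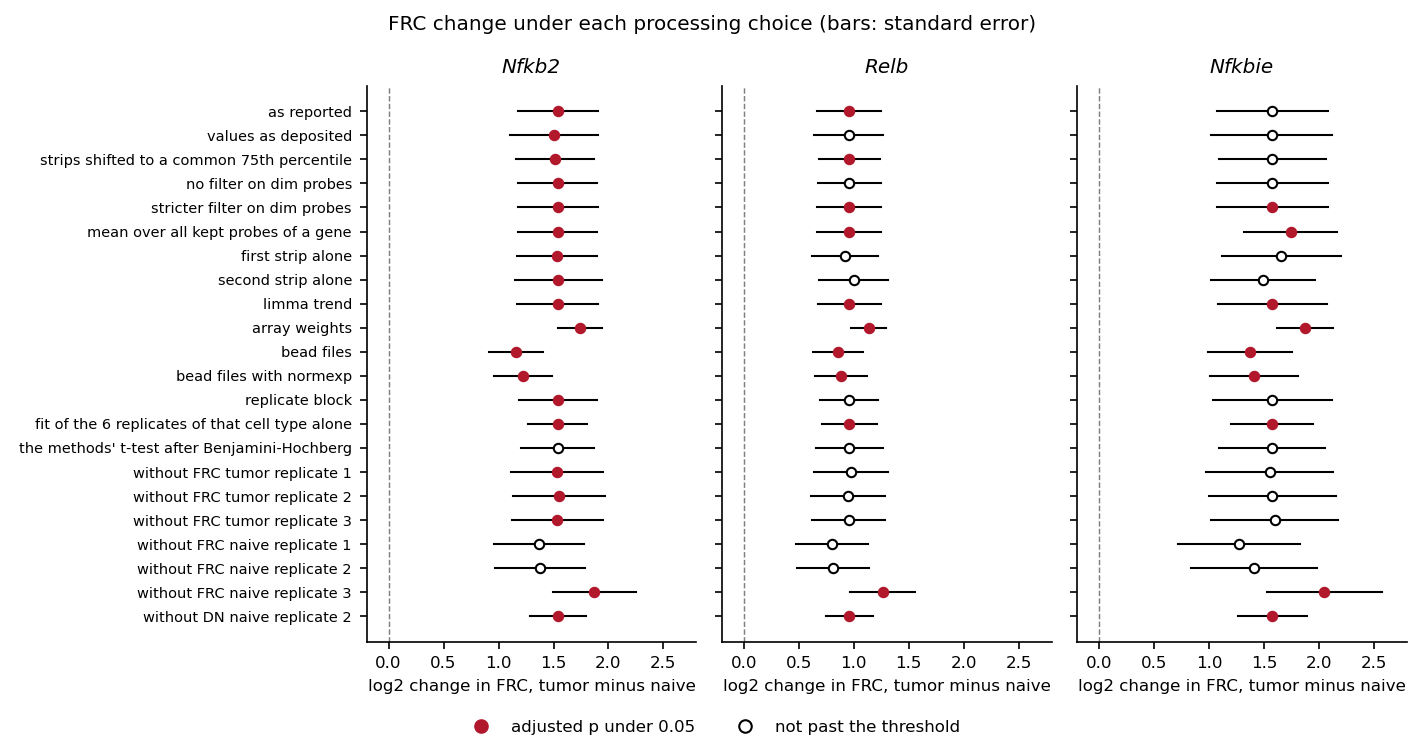
Change of Nfkb2, Relb and Nfkbie in FRCs on the log2 scale, tumor minus naive, with bars for the standard error. Points are shown as reported, under each other processing choice, without each FRC replicate in turn and without DN naive replicate 2. Filled points mark an adjusted p under 0.05. Every point lies above 0, with Nfkb2 between 1.16 and 1.74 under the other choices, and Relb and Nfkbie are filled under some of them only.

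In naive LNs, the members that changed in FRCs were highest in LECs, and Ltbr was level across the stroma. An F test called 7 of 9 members as different among naive cell types, against 68.2% of all genes. Pairs of naive cell types were called for 40.6% of all genes between FRCs and BECs, 33.4% between FRCs and LECs, 38.2% between FRCs and DN cells, 21.9% between BECs and LECs, 51.7% between BECs and DN cells and 44.6% between LECs and DN cells. Mean naive levels of Nfkb2 were 9.69 in LECs, 9.40 in BECs, 8.44 in FRCs and 7.65 in DN cells, a span of 4.13-fold. LECs and BECs did not differ beyond their spread (limma adjusted p = 0.63), BECs and FRCs did (0.0414), and FRCs and DN cells did not (0.0927). The step from BECs to FRCs was lost in 7 of 35 alternatives, among them those without FRC naive replicate 1 or 2 (adjusted p = 0.153 and 0.15) and without BEC naive replicate 1 or 3 (0.164 and 0.134). Relb ran in the same order, with 11.43 in LECs, 10.47 in BECs, 9.73 in FRCs and 9.17 in DN cells, and both upper steps passed (limma adjusted p = 0.022 and 0.0468), while the lowest did not (0.141). The step of Relb from BECs to FRCs was lost in 20 of 35 alternatives (adjusted p up to 0.181, without FRC naive replicate 1). Tumor FRCs, at a mean of 9.98 for Nfkb2 and 10.69 for Relb, were above naive FRCs. The naive level of Nfkbie was 11.81 in LECs, 10.06 in BECs, 9.68 in FRCs and 8.85 in DN cells, and only the step below LECs passed (limma adjusted p = 0.0156).

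The inhibitor genes Nfkbia and Tnfaip3 had their highest naive mean in BECs. Nfkbia averaged 14.50 in BECs, 14.19 in LECs, 13.49 in FRCs and 13.15 in DN cells. With all replicates, no neighbours in this order differed beyond their spread (limma adjusted p = 0.519, 0.0849 and 0.399), although BECs exceeded FRCs by 2.02-fold (adjusted p = 0.0108). Tnfaip3 averaged 12.52 in BECs, 11.93 in LECs, 11.10 in DN cells and 11.04 in FRCs, and BECs exceeded FRCs by 2.78-fold (limma adjusted p = 0.0126). Birc3 ran from 7.73 in LECs through 7.59 in BECs and 6.81 in FRCs to 6.47 in DN cells, with no neighbouring step past the threshold when all replicates were used. Rela spanned 1.52-fold, from LECs at 13.71 to DN cells at 13.11. Naive Ltbr spanned 1.15-fold, with 9.43 in BECs, 9.25 in LECs, 9.24 in DN cells and 9.22 in FRCs, and did not differ (limma adjusted p of the F test 0.815). Tnfrsf1a was not called either (0.13), but was without DN naive replicate 2 (limma adjusted p = 0.0275). The F test then called 9851 of 13493 genes, against 9109 of 13353 with all replicates.

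With all replicates, no member was called between naive FRCs and naive DN cells (0.79 for Nfkb2 and 0.56 for Relb, limma adjusted p = 0.0927 and 0.141). Leaving out DN naive replicate 2 made these differences wider. Of 54 pairs of naive cell types over the 9 members, 22 were called, and all 22 remained without DN naive replicate 2, when 33 were called, and without FRC naive replicate 3, when 23 were. Without DN naive replicate 2, naive FRCs exceeded naive DN cells for Nfkb2 by 1.37 (limma adjusted p = 0.00063), Nfkbie by 1.70 (0.000625), Relb by 1.00 (0.00197), Nfkbia by 0.87 (0.0019) and Rela by 0.69 (0.000458), and Tnfaip3 was then 0.69 higher in naive FRCs than in naive DN cells and not called (0.098). Other calls gained without DN naive replicate 2 were Nfkbia (limma adjusted p = 0.0054) and Tnfaip3 (0.0259) between FRCs and LECs, and Birc3 between FRCs and BECs (0.0428). Against DN cells they were Tnfaip3 in LECs (0.000677), and Nfkbie (6.05e-05) and Tnfrsf1a (0.00819) in BECs. Without FRC naive replicate 3, no member was called between naive FRCs and naive DN cells. The 1 call gained then was Nfkbie between BECs and DN cells (0.037). The step from BECs to FRCs was -1.29 for Nfkb2 (limma adjusted p = 0.0113) and -1.05 for Relb (0.00814) without FRC naive replicate 3.

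Over the 8 group means, the gene whose levels ran most like those of Relb was Ugcg, with Pearson's r of 0.99, followed by Birc2 and Neto2. Extl1, Prcp and Tfpi ran most like Nfkb2 (r up to 0.98), Zfp202, Ehd1 and Tnc most like Nfkbie (0.98), and Csf3, Trex1 and Mtss1 most like Tnfaip3 (0.98). For Ltbr the closest was Prr14l (0.97) and for Tnfrsf1a Suco (0.95). These are descriptions over 8 points, of which each pair of the same cell type shared a slide.

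The other genes of the pathway were taken from lists, which were also chosen with earlier results of these data known. Counts of called list genes in FRCs stand beside the 6.29% of all genes called higher and 4.05% called lower, and nothing particular to a list is read from them. In FRCs, 1 of 6 tested ligands was higher with lymphoma and none lower. It was Tnfsf11, the ligand RANKL, at 10.51 ± 0.35 in tumor FRCs and 8.14 ± 1.14 in naive FRCs (SD, n = 3 each), a 5.17-fold difference with a limma adjusted p of 0.0476. Of 7 other receptors, 2 were higher. Tnfrsf1b, which encodes the second TNF receptor, changed by 1.37 (adjusted p = 0.0458), and Il1r1, the interleukin-1 receptor, by 1.32 (adjusted p = 0.0392). Of 39 alternatives, the call was lost in 23 for Tnfsf11, 19 for Tnfrsf1b and 9 for Il1r1.

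Of 18 tested adaptors and kinases, 2 were higher in tumor FRCs and none lower, with a list median of -0.04. Traf1, an adaptor of TNF family receptors, was at 10.32 ± 0.48 in tumor FRCs and 7.97 ± 0.51 in naive FRCs (SD, n = 3 each), 5.09-fold higher (limma adjusted p = 0.0275). Birc2, the close relative of Birc3, was 2.3-fold higher (adjusted p = 0.0218). Of 13 other Rel, IκB and inhibitor genes, Tnip1, a partner of A20, was higher by 3.06-fold (adjusted p = 0.0463) and none was lower. The call of Tnip1 was lost in 22 of 39 alternatives.

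Of 9 LTβR target genes in FRCs, 2 were higher, the RANKL gene above and Madcam1, an adhesion ligand for homing lymphocytes. Madcam1 was at 9.45 ± 0.45 in tumor FRCs and 7.25 ± 0.89 in naive FRCs (SD, n = 3 each), 4.59-fold higher (limma adjusted p = 0.0033). Of 27 inflammatory NF-κB target genes, 5 were higher and none lower, and 22 were above 0, with a median of 0.62. Mmp9, a matrix protease, was 10.2-fold higher (adjusted p = 0.00403). The growth factor Csf2 was 6.29-fold higher (0.0225), the endothelial selectin Sele 5.56-fold (0.0107) and the mitochondrial enzyme Sod2 1.54-fold (0.0123). Csf3 was at 7.73 in tumor FRCs, while no naive FRC replicate was above background, so it was at least 4.47-fold higher (0.00353).

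The early response genes, which dissociation of tissue is known to induce as well, had lower values with lymphoma. Of 20 tested, 5 were called lower in tumor FRCs (Fosb, Fos, Klf4, Atf3 and Klf6) and 19 had a change below 0, with a median of -0.66. The other cell types shared this direction, with 19 of 20 below 0 in BECs and 20 of 20 in both LECs and DN cells. Their medians were -0.53, -0.44 and -0.52 in that order. Fosb averaged 12.83 in tumor FRCs and 14.42 in naive FRCs, 3.02-fold lower in tumor FRCs (limma adjusted p = 0.0024). Among markers of other cells in FRCs, 3 of 9 pericyte and smooth muscle markers were higher (Mcam, Tagln and Des), and the mean level of the list was 11.07, 10.90 and 10.85 in tumor replicates, against 9.65, 9.75 and 10.35 in naive replicates. Its summed signal was 71900 to 89600 in tumor FRCs, against 58500 to 75200 in naive FRCs. Lymphatic markers averaged 9.67, 9.08 and 9.46 in tumor FRC replicates, against 8.72, 8.68 and 9.97 in naive FRC replicates, so FRC naive replicate 3, the highest naive replicate for Nfkb2, Relb and Nfkbie, was also the highest of all FRC replicates here. Leukocyte markers averaged 7.40, 7.29 and 8.62 in tumor FRCs, against 6.97, 6.49 and 6.94 in naive FRCs, with a summed signal of 5700 to 13100 in tumor FRCs, against 2440 to 3710 in naive FRCs, and 0 of 11 were called. Of this list, Cd53, Rac2 and Cd37 were above background in no naive FRC replicate. All 7 B cell markers had a change above 0 in FRCs, with a summed signal of 1770 to 3370 in tumor FRCs, against 926 to 1420 in naive FRCs, and none was called. Cd72 weighs most in this sum, at a mean of 10.45 in tumor and 9.17 in naive FRCs, against 10.29 in tumor DN cells. Vpreb3, a surrogate light chain gene of B cells, was above background in 3 tumor FRC replicates and 0 naive ones, and Ms4a1 in no FRC replicate of either state. All 11 myeloid markers had a change above 0, and 2 were called higher, Csf1r (limma adjusted p = 0.0157) and Cd14 (0.0193), with a summed signal of 2750 to 4620 in tumor FRCs, against 1080 to 1590 in naive FRCs. Cd14 weighs most in this sum, at a mean of 11.43 in tumor and 9.63 in naive FRCs, and was at 11.22 in naive LECs. Tyrobp and Clec4d were above background in no FRC replicate, while S100a8 was above it in all of them. The part of these other cells in the changes of Nfkb2, Relb and the list genes was not tested.

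**Figure D4:**
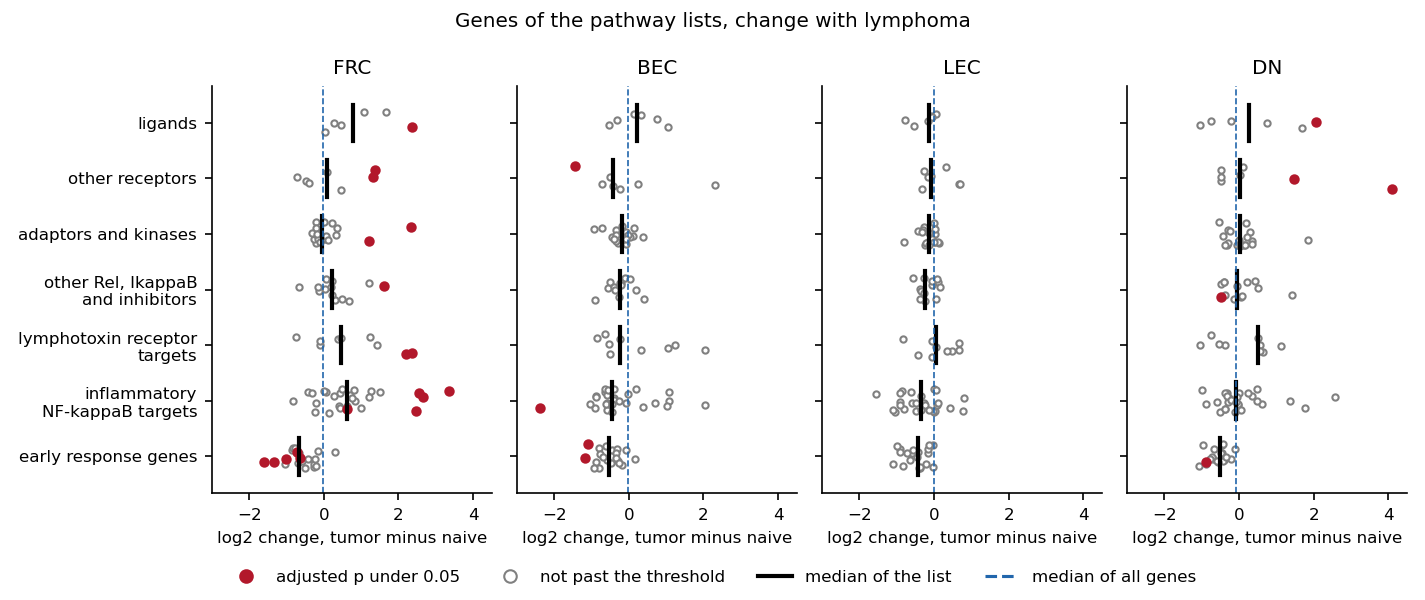
Tumor minus naive change on the log2 scale of each tested gene in the pathway lists, for FRCs, BECs, LECs and DN cells. Filled points mark an adjusted p under 0.05, black bars the list median and dashed lines the median of all genes. In FRCs the inflammatory targets have a median of 0.62 and the early response genes one of -0.66.

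In BECs, Csf3 was lower with lymphoma, at 7.62 ± 0.44 in tumor BECs and 10.00 ± 1.02 in naive BECs (SD, n = 3 each, limma adjusted p = 0.00959). Tnfrsf11a, the receptor of RANKL, was also lower, by 1.45 on the log2 scale (adjusted p = 0.0443), a call lost in 21 of 39 alternatives. They were the only pathway genes called in BECs apart from 2 early response genes, Fosb and Egr2, both lower. In LECs, no gene of any pathway list was called. In DN cells, Ltb, which encodes the lymphotoxin-β subunit, was higher by 2.06 (adjusted p = 0.0248) and Cd40 by 1.47 (0.0232), and Tnfrsf13c, the BAFF receptor of B cells, was at least 12.8-fold higher (0.00621), since no naive DN replicate was above background. Tax1bp1, which assists A20, was lower by 0.49 (limma adjusted p = 0.0495), and so was the early response gene Atf3, calls lost in 27 and 28 of 39 alternatives. Beside these, 5 of 7 B cell markers were called higher in tumor DN cells, with a summed signal of 2690 to 26200 in tumor DN cells, against 878 to 2170 in naive DN cells, and their part in the result was not tested.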

How the data were processed

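Expression was measured on Illumina mouse bead arrays in 24 replicates of 8 groups, with 2 strips per replicate. The authors deposited a table of log2 values of 45281 probes on 48 strips, and 122 of its cells were empty. How these log2 values were corrected and normalized is not given in the sources used here. The authors also deposited bead intensity files per strip, which carry codes without probe names and served for 2 alternatives only, through a match of profiles over strips.

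Quantile normalization was applied across strips, and the strips of a replicate were then averaged. Background was set at 5.57, which is 3 robust SDs (0.20) above the mode of 4.97. Probes had to carry 1 symbol and to exceed this level in the mean of some group (21784 probes), and the brightest per gene gave 13353 genes. Probes with several symbols (18) or none (10378) were left out. Limma 3.58.1 under R 4.3.3 fitted 8 group means (16 residual degrees of freedom), with Benjamini-Hochberg adjustment over all genes and a threshold of 0.05. On simulated data for FRCs, 88% of 50 genes changed by 2 (log2) were called, 48% of those changed by 1 and 6% of those changed by 0.5, among 13353 genes. Arrays hold no counts, so precision is limited by the number of replicates. Replicates differed by more than their strips did, so none was counted as a duplicate. Same-numbered replicates deviated together in LECs (correlations 0.20, 0.22 and 0.15), and not throughout the other cell types. The numbers come from the labels, which do not say that they mark a shared batch.

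The 10 members, and the lists of pathway genes and cell markers, were chosen with earlier results of these data known. All members are named, then list genes that passed the test, at most 6 per list, direction and cell type, by adjusted p, and the 3 genes with the highest r to a member. Gene positions and start regions are from RefSeq (GRCm38.p6). Alternatives covered normalization, filter, probe choice, single strips, bead files, model, replicate block, the methods' t-test and each replicate left out. Figures were drawn with matplotlib 3.10.9.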

Additional observations from a re-analysis of the deposited data

Results flagged for a closer look

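Among the named genes of the pathway lists, 4 differed between cell types in their change with lymphoma, by a limma test of the difference itself with Benjamini-Hochberg adjustment. No member did. The list genes were named because they had passed the test in a cell type, so they were chosen by values that this test uses again. Over all genes, the change in FRCs differed from that in BECs for 0.906% and from that in LECs for 0.607%. Csf3 changed by at least 2.16 in FRCs, where all naive replicates were below background, by -2.38 in BECs and by -1.57 in LECs. With values as measured, FRCs differed from BECs (adjusted p = 0.00208) and from LECs (adjusted p = 0.0067). With values below background raised to its level, a choice made after seeing the data, the differences were 4.54 and 3.73 (adjusted p = 0.00194 and 0.00881). Madcam1 changed by 2.20 in FRCs, -0.53 in BECs and -0.84 in LECs, and FRCs differed from both (adjusted p = 0.0408 and 0.0239). Mmp9 changed by 3.35 in FRCs and -1.09 in LECs (adjusted p of the difference 0.0405). Sod2 changed by 0.62 in FRCs and -0.34 in LECs (adjusted p of the difference 0.0413). The causes were not tested.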

How the results depend on the processing

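The change of Nfkb2 in FRCs kept its direction under all 14 alternatives and was called in 13, the exception being the methods' t-test after Benjamini-Hochberg adjustment (adjusted p = 0.0813). Relb was called in 8 of 14 and Nfkbie in 7 of 14. With replicates left out in turn, Nfkb2 ranged over 1.37 to 1.87 (called in 22 of 24), Relb over 0.80 to 1.26 (18 of 24) and Nfkbie over 1.27 to 2.05 (3 of 24). With 3 replicates a group, changes near 1 on the log2 scale are at the limit of what the fit calls.

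The count of members called in FRCs, 2 as reported, was 1 (Nfkb2) with values as deposited, without a filter, with either strip alone and with the replicate block, 0 with the methods' t-test after adjustment, and 3 with the bead files, the stricter filter, the mean of probes, limma's trend, a fit on FRCs alone and the unadjusted t-test. With array weights, whose estimation stopped before convergence, it was 5 in FRCs, 4 in BECs and 2 in LECs, and 8 for the difference among cell types. Array weights raised calls over all genes too, to 3950 in BECs (667 as reported), 530 in LECs (120) and 3572 for the difference among cell types (168). The unadjusted t-test gave 1 member in BECs and 2 in LECs, beside 2206 and 1602 of all genes. With replicates left out, the count was 0 to 3 in FRCs (0 without FRC naive replicate 1 or 2, and 1 without any FRC tumor replicate or LEC naive replicate 1), 0 to 1 in BECs, 0 to 0 in LECs and DN cells, 6 to 8 for naive levels and 0 to 2 for the difference among cell types. Calls over all genes in FRCs, 1381 as reported, were 2451 on FRCs alone, 648 with the adjusted t-test, 5200 with array weights, 715 and 477 without FRC tumor replicate 1 or 2, and 583 and 689 without FRC naive replicate 1 or 2. The replicate block, where pairs are not given by the design, changed no count of members outside FRCs, and calls over all genes with it were 1003 in FRCs, 509 in BECs (667 as reported), 84 in LECs (120), 707 in DN cells (968) and 61 for the difference among cell types (168). Naive levels were not refitted with it. Over all alternatives, the genes called in FRCs ranged over 1 to 17 in the inflammatory list (5 as reported), 2 to 12 in the early response list (5), 0 to 5 among other Rel and IκB genes (1), 0 to 4 among adaptors and among LTβR targets (2 each) and 0 to 3 among ligands (1) and receptors (2).

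Some changes that were not called turned sign. In LECs, Relb was 0.0044 with 75th percentile scaling, 0.062 with the first strip and 0.0272 with weights, Nfkbie -0.33 with the mean of probes, and Birc3 0.0238 with the first strip, 0.0505 with the bead files and 0.0584 with these after normexp. Ltbr in BECs was 0.0319 with the first strip and 0.0939 with weights. In DN cells, Nfkb2 was 0.15 with the first strip, Tnfaip3 0.12 with the second, and with weights Nfkb2 was 0.36, Tnfaip3 0.62, Nfkbia 0.28, Rela 0.061, Relb 0.29 and Tnfrsf1a 0.22. The causes were not tested. With replicates left out, the ranges across 0 were -0.0868 to 0.17 (Ltbr) and -0.15 to 0.0134 (Rela) in FRCs, -0.21 to 0.15 (Ltbr), -0.46 to 0.0686 (Nfkb2) and -0.36 to 0.0068 (Nfkbie) in BECs, and -0.11 to 0.0788 (Relb), -0.31 to 0.0712 (Birc3) and -0.0128 to 0.24 (Nfkb2) in LECs. In DN cells they were -0.44 to 1.04 (Nfkbie), -0.37 to 0.32 (Relb), -0.57 to 0.70 (Tnfaip3), -0.76 to 0.0547 (Birc3), -0.49 to 0.47 (Nfkb2), -0.44 to 0.36 (Nfkbia) and -0.29 to 0.13 (Rela).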

Other observations

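In BECs, the SD between tumor replicates was lower than that between naive replicates for 8 of 9 members, against 45.3% of all genes, and in LECs for 3 of 9, against 37.1% of all genes. The median SD of the members was 0.08 in tumor BECs and 0.36 in naive BECs, and 0.27 in tumor LECs and 0.17 in naive LECs. The tumor SD was then compared with the naive SD in the remaining cell types. It was also lower for 8 of 9 members in FRCs, against 46.1% of all genes, and for 8 of 9 in DN cells, against 59.5%. In both, 1 naive replicate stood apart. In BECs, naive replicate 2 was the lowest naive replicate of Nfkb2, Relb, Nfkbie, Rela, Tnfaip3 and Birc3. It was not the lowest of Ltbr, Tnfrsf1a and Nfkbia. Some members also varied together within groups (r = 0.87 for Nfkb2 with Relb over 24 replicates), so the 8 of 9 members in a cell type are not separate observations. With 3 replicates a group these SDs are imprecise, and the difference in spread was not tested.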
